A study of Mus musculus with 4 samples.

Results

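Immunoglobulin genes were examined in 4 RNA-seq libraries labelled as CD4+ T cells of inflamed mouse skin. Members were all genes of the heavy (Igh), kappa (Igk) and lambda (Igl) loci that match the V, D, J or constant-region names, plus Jchain, and were chosen by their counts, at least 1 fragment summed over the libraries. Of 396 annotated immunoglobulin gene identifiers, 42 met this rule, out of 24651 genes with a fragment. The rule used the summed counts themselves, so that a member has fragments is no finding. Just inside the threshold were 17 members with exactly 1 fragment, and just outside were 354 genes with 0. The rule did not look at the distribution of fragments over libraries, chains and exons. A member with fragments in a single library nevertheless met it through that library.

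All mice were 8 to 12 weeks old and received imiquimod cream (5%) on the back for 5 days, at a daily amount given as 15 or 62.5 mg without saying which mouse received which. The 2 control libraries came from Mettl3fl/fl mice, whose floxed Mettl3 alleles stay intact without Cre. The 2 knockout libraries came from Mettl3fl/fl;Cd4-Cre mice, in which the Cd4 promoter drives Cre recombinase and the floxed alleles are the same. Mettl3 is the catalytic subunit of the enzyme that writes N6-methyladenosine on RNA, and the comparison asks what differs in skin CD4+ T cells without it. The Cd4 promoter is active in developing T cells. Strain, sex and the number of mice per library are not given in the sources used here, so each p-value reflects only how far these libraries differ, which may be technical.

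An antibody consists of heavy chains and light chains. Each variable region is assembled in a B cell by joining 1 V and 1 J segment, with a D segment between them in the heavy chain, and the joined exon is spliced to a constant region such as Ighm (IgM) or Igkc (kappa). A B cell carries IgM on its membrane, and a plasma cell makes the secreted form through another choice of 3′ exons. Jchain links secreted IgM and IgA into polymers. T cells rearrange their own receptor loci and are not known as a source of assembled immunoglobulin transcripts, and antibodies on mast cells and macrophages are bound as protein rather than made by them.

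The sequences that carry most of the counted variable-region signal are the V exons of Ighv5-17 (GRCm38 chr12:113859149-113859448, minus strand), Igkv8-34 (chr6:70044112-70044411, minus strand) and Igkv14-111 (chr6:68256572-68256869, plus strand). The first and second are cut to their last 300 bases. They are shown 5′ to 3′ as the reference transcripts of GENCODE M21 give them, not as read from these mice, whose rearranged copies may differ. Capitals mark TATTANTGT, which holds the cysteine codon near the end of the V region. It was searched on the coding strand only and occurred in 69 of 113 heavy V exons (61.1%) and 43 of 100 kappa V exons (43.0%) not annotated as pseudogenes.
Ighv5-17: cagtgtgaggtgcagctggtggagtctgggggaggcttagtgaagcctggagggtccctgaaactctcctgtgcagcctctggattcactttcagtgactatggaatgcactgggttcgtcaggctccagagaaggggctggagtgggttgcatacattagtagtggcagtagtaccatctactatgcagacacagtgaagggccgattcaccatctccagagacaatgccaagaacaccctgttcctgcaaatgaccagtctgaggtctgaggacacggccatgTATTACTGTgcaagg
Igkv8-34: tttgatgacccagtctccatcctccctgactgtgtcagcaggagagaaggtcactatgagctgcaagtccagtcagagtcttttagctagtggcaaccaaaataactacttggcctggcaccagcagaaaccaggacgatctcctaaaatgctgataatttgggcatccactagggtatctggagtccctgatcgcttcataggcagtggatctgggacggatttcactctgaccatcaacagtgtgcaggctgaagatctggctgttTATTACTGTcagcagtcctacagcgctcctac
Igkv14-111: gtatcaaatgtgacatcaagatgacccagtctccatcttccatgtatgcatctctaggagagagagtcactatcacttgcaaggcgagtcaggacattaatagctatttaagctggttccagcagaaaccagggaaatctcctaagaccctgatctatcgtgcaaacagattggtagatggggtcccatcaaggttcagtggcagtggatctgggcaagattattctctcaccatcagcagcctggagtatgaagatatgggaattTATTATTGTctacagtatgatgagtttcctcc

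The J segment with most fragments in the heavy and in the kappa locus is shown because it is the other short part of a variable region that was counted. These are Ighj3 (chr12:113429085-113429132, minus strand) and Igkj4 (chr6:70723548-70723585, plus strand). Capitals mark the bases of the tryptophan-glycine-X-glycine motif in Ighj3, found on the coding strand of 4 of 4 Ighj, and of the phenylalanine-glycine-X-glycine motif in Igkj4, found in 4 of 5 Igkj.
Ighj3: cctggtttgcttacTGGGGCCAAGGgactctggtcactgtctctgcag
Igkj4: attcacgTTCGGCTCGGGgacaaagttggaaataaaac

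The ends of the secreted and membrane forms of Ighm are shown because fragments could be counted separately in them. The coding bases of the secreted form alone (chr12:113420870-113420928, minus strand) extend the last shared exon, and the first membrane exon (chr12:113418953-113419068, minus strand) encodes membrane anchor sequence.
Ighm secreted end: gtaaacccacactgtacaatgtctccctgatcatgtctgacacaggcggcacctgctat
Ighm membrane exon: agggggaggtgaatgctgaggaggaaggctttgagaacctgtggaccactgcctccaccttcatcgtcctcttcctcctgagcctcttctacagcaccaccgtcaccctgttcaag

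Libraries held between 3614418 and 4537006 counted fragments. Mettl3, the targeted gene, was at 42.1 CPM (counts per 1e6 fragments, scaled by the TMM method of edgeR) in control 1 and 12.8 in control 2, against 29.9 and 36.9 in knockouts 1 and 2. Both knockouts lay between the controls (log2 fold change 0.28, standard error 1.16, edgeR adjusted p = 0.9998), so its count did not tell the genotypes apart. The count sums all exons, and which exons are floxed is not given here, so genotype was taken from the labels alone. Control 2 stood apart from the others, with 7.98% of its fragments from mitochondrially encoded genes against 2.29% to 4.39%, and 2.47% from the 8 keratinocyte markers against 0.106% to 0.222%. Genes with a fragment numbered 19378 in control 1 and 20100 in knockout 1, against 11424 in control 2 and 16273 in knockout 2. Control 2 and knockout 2, which had the fewest immunoglobulin fragments, thus also had the fewest genes detected and the highest mitochondrial shares, and the part of this in the immunoglobulin levels was not tested. The label as CD4+ T cells was checked against T cell markers. Fragments of Cd4 itself numbered 777 for control 1, 0 for control 2, 420 for knockout 1 and 9 for knockout 2. The 9 T cell markers together made up 0.0861%, 0.0272%, 0.0247% and 0.0114% of fragments in that order, below the macrophage and monocyte markers (0.520% to 2.12%) in every library. Markers of other cell types were thus counted in every library. In bulk samples, fewer cells of a type and less RNA per cell cannot be told apart.

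Immunoglobulin transcripts were concentrated in knockout 1. That library held 10175 of the 10683 immunoglobulin fragments, while control 1 held 378, control 2 held 54 and knockout 2 held 76. As a share of all counted fragments this was 0.236% in knockout 1 (exact 95% interval 0.231 to 0.24), 0.00833% in control 1 (0.00751 to 0.00922), 0.00149% in control 2 (0.00112 to 0.00195) and 0.00175% in knockout 2 (0.00138 to 0.00219). These intervals cover counting error only, since no molecular identifiers are described and copies of 1 molecule can be counted repeatedly. Control 2 and knockout 2, of different genotype, had overlapping intervals, while the 2 knockouts lay farther apart than the 2 controls.

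The summed level was 81.6 CPM for control 1 and 14.1 for control 2, against 2510 for knockout 1 and 17.8 for knockout 2. Knockout 1 was 30.8-fold above control 1, 178.1-fold above control 2 and 141.3-fold above knockout 2. The 2 controls averaged 47.8 ± 47.7 CPM and the 2 knockouts 1264 ± 1762 CPM (± SD, n = 2 per genotype). The mean log2 difference of knockouts over controls was 2.64, with an exact two-sided permutation p of 0.667, where 2 libraries against 2 cannot go below 0.33. Without knockout 1 the difference was -0.89, so its direction rested on that library.

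**Figure D1:**
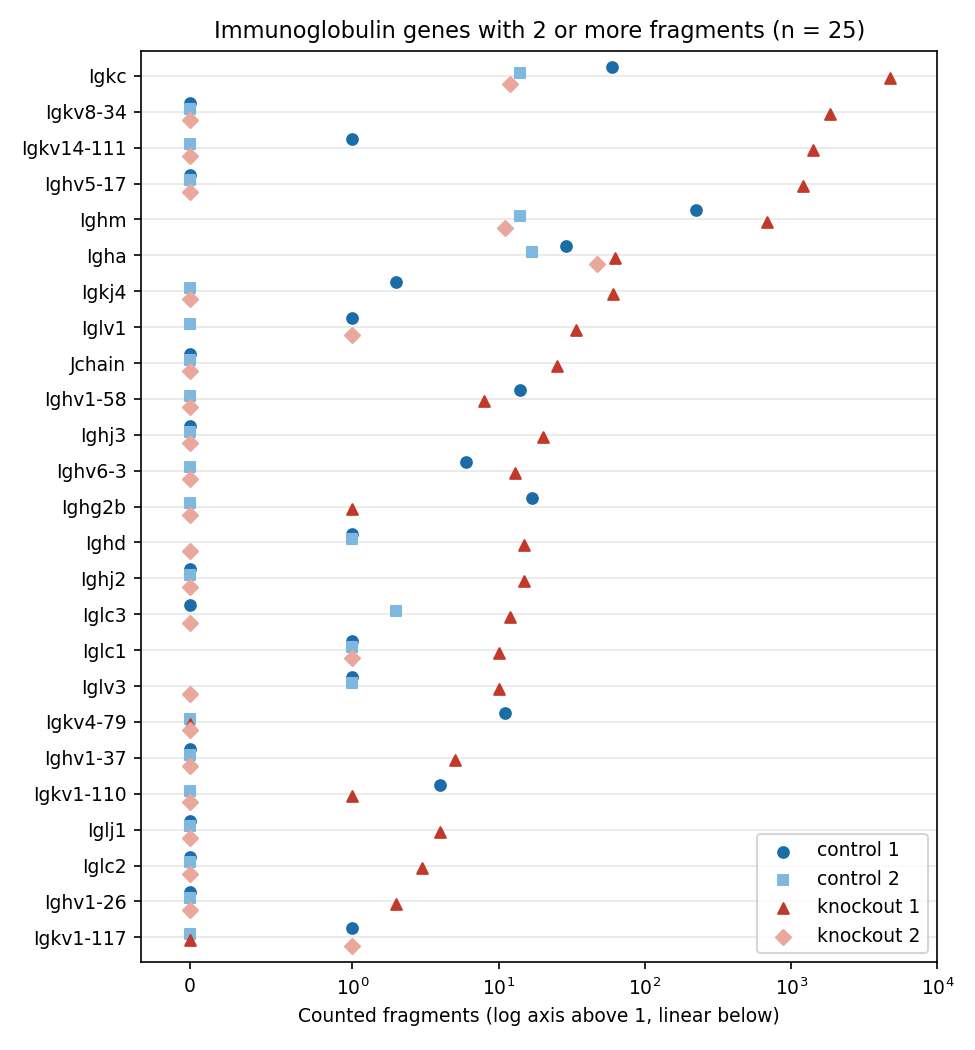
Counted fragments (x axis, logarithmic above 1 and linear below) of the 25 immunoglobulin genes with at least 2 fragments (y axis), 1 point per library. Knockout 1 (dark red triangles) reaches 4738 fragments for Igkc, where the other libraries lie between 12 and 60, while for Ighg2b and Igkv4-79 control 1 (dark blue circles) is highest.

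Between genotypes no immunoglobulin gene passed the test across all genes. The low-count filter of edgeR kept 3 of the 42 members, Igkc, Ighm and Igha, so the others were described by their fragments. Of these 3, 0 were called at an adjusted p under 0.05 and 0 had an unadjusted p under 0.05 (edgeR quasi-likelihood test). DESeq2 and limma-voom also called 0 of them (DESeq2 called 0.188% of all genes, 0.0442% as higher, and limma-voom 0%). The unadjusted p of Igkc was 0.000997 with DESeq2 (DESeq2 adjusted p = 0.258). Over all 12434 genes tested by edgeR, 0 were called (0%) and 187 had an unadjusted p under 0.05. All 3 had positive log2 fold changes, as had 56.9% of all genes tested. Their median was 1.72, beside 0.20 over all genes tested. Without knockout 1, only Igha of these 3 stayed positive (1.07), while Igkc was at -1.54 and Ighm at -3.33. Ighg2b was also tested there, at -6.03. Of the libraries left it had fragments in control 1 alone and passed the filter through it, so its sign was fixed. The median of these 4 was -2.44, over another set of genes than the median of 1.72. Both knockouts lay above both controls for 2 of the 42 members, Igha and Iglv1 (4.76%, against 14.8% of all genes with a fragment), and below them for 0 (8.15% of all genes). For Iglv1, control 1 and knockout 2 had 1 fragment each (0.216 and 0.234 CPM), so their order rested on the scaling.

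Across libraries the members were unevenly spread. Of the 42, 25 had their highest CPM in knockout 1 (59.5%, against 31.6% of all genes with a fragment), 9 in control 1, 4 in control 2 and 4 in knockout 2. The shares of all genes were 25.8% for control 1, 22.3% for control 2 and 20.3% for knockout 2. A single library held all fragments of 27 members (64.3%, against 23.1% of all genes), and 14 of these were in knockout 1. Those 14 met the rule through knockout 1 alone, so their highest level there was fixed by it. All genes with a fragment, given beside them, were taken by the same minimum of 1 fragment. Members with fragments in all 4 libraries numbered 4, namely Igkc, Ighm, Igha and Iglc1, all constant-region genes. Most other members had few fragments, which by itself limits in how many libraries a gene can appear.

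Of the light chain constant regions, Igkc, the kappa constant region (ENSMUSG00000076609, chromosome 6, 70726435 to 70726966), had the most fragments of any member. Knockout 1 had 4738 of its fragments, control 1 had 60, control 2 had 14 and knockout 2 had 12. One library was high, and knockout 2 lay below both controls. The level of 1169 CPM in knockout 1 was 90.3-fold that of control 1 (12.9 CPM), with 3.65 CPM in control 2 and 2.80 in knockout 2. Between genotypes the log2 fold change came to 6.13 (standard error 2.55, edgeR adjusted p = 0.9998), and to -1.54 without knockout 1, where edgeR called no member and 0.0136% of all genes.

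The lambda constant regions were low in every library. Iglc1 had 1, 1, 10 and 1 fragments in control 1, control 2, knockout 1 and knockout 2, Iglc3 had 0, 2, 12 and 0, and Iglc2 had 3 in knockout 1. Those 3 lay in a separate entry beside the constant exon of Iglc2, which has only 6 countable bases (bases that no other annotated entry covers). Iglc4 had 0 fragments in every library. Among fragments of light chain constant regions, Igkc made up 99.5% in knockout 1 (exact 95% interval 99.2 to 99.7) and 98.4% in control 1 (91.2 to 99.96). The share was 82.4% in control 2 (14 of 17 fragments, 56.6 to 96.2), whose interval lies below that of knockout 1, and 92.3% in knockout 2 (12 of 13, 64.0 to 99.8).

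In knockout 1 the variable kappa fragments came almost all from 2 V genes. Igkv8-34 had 1839 fragments there and 0 in the other 3 libraries. Igkv14-111 had 1402, and 1 in control 1. Together they made up 99.9% of 3243 kappa V fragments in that library (exact 95% interval 99.8 to 99.99), with 56.7% from Igkv8-34 and 43.2% from Igkv14-111. The only other kappa V genes with a fragment in knockout 1 were Igkv1-110 and Igkv1-88, with 1 each.

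Igkv8-34 and Igkv14-111 are distant relatives, with 66.1% identity. The nearest annotated relative was Igkv8-30 for Igkv8-34 (87.3% identity) and Igkv14-126 for Igkv14-111 (90.9%), and among 160 kappa V exons 4 had a relative at 98% identity or more. On the germline map Igkv8-34 lies 677.9 kb from the J segments, with 34 of 160 V genes closer, and is on the strand opposite to them. Igkv14-111 lies 2466 kb away, with 129 V genes closer, and is on the same strand. Both orientations occur among kappa V genes, 75 of the 160 being on the strand of the J segments.

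Igkj4, the kappa J segment shown above, had 61 fragments in knockout 1, 2 in control 1 and none in control 2 or knockout 2. Igkj1 had 1 fragment, in knockout 1, and the other 3 Igkj genes had none. Per 100 countable bases knockout 1 had 467.4 fragments in the Igkv14-111 V exon, 580.1 in that of Igkv8-34, 160.5 in Igkj4 and 890.6 in Igkc. The 2 V exons summed to 1048, a density close in size to that of Igkc, whereas the J segment lay lower. Fragments that overlap several entries were not counted, which may lower the count of so short a segment.

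In the other libraries kappa V fragments were few and spread over other genes. Igkv4-79 led in control 1, with 11 of 20 fragments, followed by Igkv1-110 with 4, and neither control 2 (3 fragments) nor knockout 2 (4 fragments) had a V gene with more than 1. Igkv4-79 had 0 in the remaining 3 libraries. Igkv1-117 had 1 fragment each in control 1 and knockout 2. Of 160 annotated kappa V genes 15 had a fragment in any library, and none of these was among the 60 pseudogenes.

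The lambda variable genes showed a smaller peak in the same library. Iglv1 had 34 fragments in knockout 1, 1 each in control 1 and knockout 2 and none in control 2, and Iglv3 had 10 in knockout 1 and 1 in each control. With Iglj1 (4 fragments) and the constant regions, lambda genes made up 73 of 10175 immunoglobulin fragments in knockout 1, or 0.717% (exact 95% interval 0.563 to 0.901). Iglv1 has a relative at 96.4% identity, Iglv2.

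**Figure D2:**
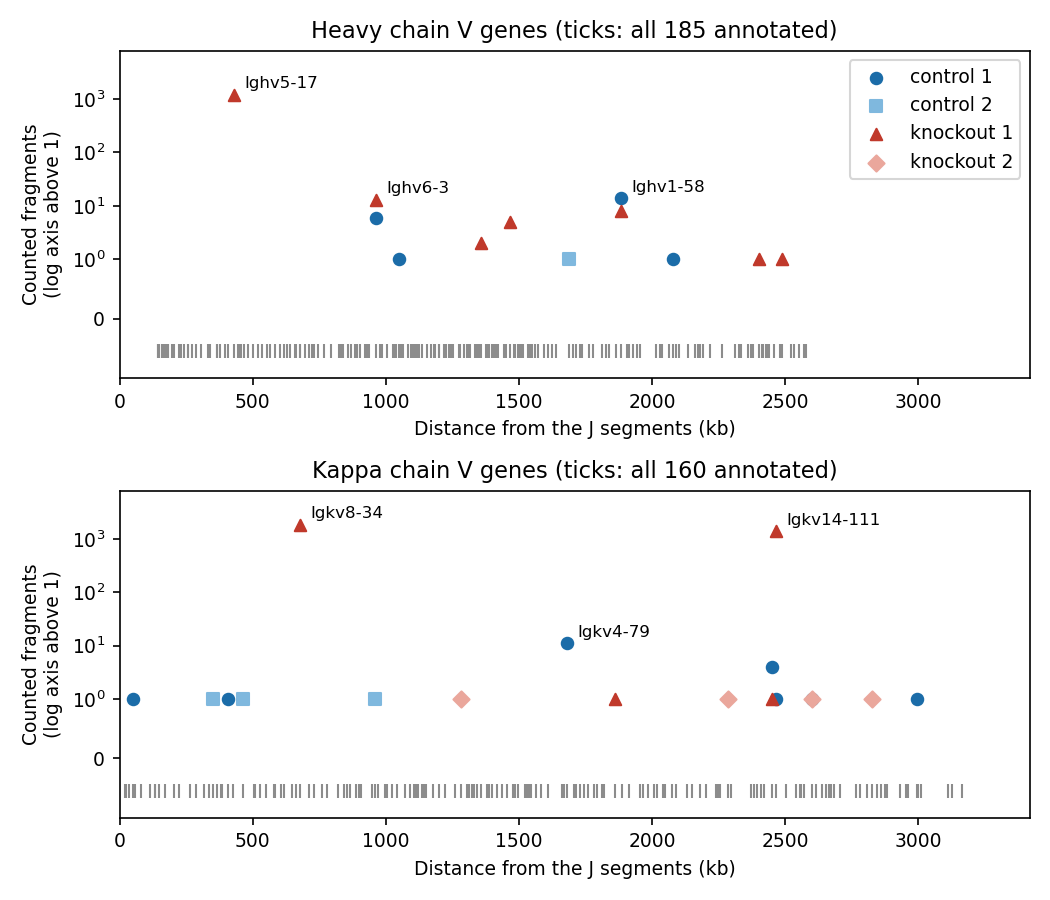
Counted fragments (y axis, logarithmic above 1) of each heavy (top) and kappa (bottom) V gene against its germline distance from the J segments in kb (x axis), with 1 symbol per library and grey ticks for all annotated V genes. In knockout 1 (dark red triangles) Ighv5-17, Igkv8-34 and Igkv14-111 have 1205, 1839 and 1402 fragments, and every other V gene in the plot has 14 or fewer in any library.

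Heavy chain variable fragments in knockout 1 came mostly from a single V gene. Ighv5-17 (ENSMUSG00000095571) had 1205 fragments there and 0 in control 1, control 2 and knockout 2. It made up 97.6% of 1235 heavy V fragments in that library (exact 95% interval 96.5 to 98.4). The V exon held 1136 of its fragments and the leader exon 69. It lies 429.3 kb from the J segments with 28 of 185 heavy V genes closer, and its nearest relative, Ighv5-6, has 90.2% identity.

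The other heavy V genes were detected at low counts in control 1 and knockout 1. Ighv1-58 had 14 fragments in control 1 and 8 in knockout 1, and Ighv6-3 had 6 and 13, with 0 in control 2 and knockout 2 for both. Unlike Ighv5-17, both had fragments in control 1. Ighv1-37 had 5 and Ighv1-26 had 2 fragments, all in knockout 1. Ighv1-37 has only 3 countable bases, and its nearest relative, Ighv1-20, has 98.7% identity, so its count is uncertain. Knockout 2 had no heavy V fragment and control 2 had 1, in Ighv1-50. No fragment was counted in any of the 70 heavy V pseudogenes.

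Of the heavy J segments, Ighj3 had 20 fragments and Ighj2 had 15, all in knockout 1, and the other 2 Ighj genes had none. No fragment was counted in any of 20 D segments. With the counting options given, a fragment that overlaps several entries is not counted. Segments as short as D and J may therefore be undercounted against V exons, and how far was not tested. Per 100 countable bases knockout 1 had 372.5 fragments in the Ighv5-17 V exon and 41.7 in Ighj3.

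Ighm, the constant region of IgM (ENSMUSG00000076617, chromosome 12, 113418558 to 113422730), was the leading heavy chain constant gene in control 1 and knockout 1. Knockout 1 had 685 fragments (169.0 CPM), control 1 had 224 (48.3), control 2 had 14 (3.65) and knockout 2 had 11 (2.57). One library of each genotype was high and the other was low, so the groups overlapped. Ighm made up 82.7% of heavy constant fragments in control 1 (exact 95% interval 77.6 to 87.0) and 89.7% in knockout 1 (87.3 to 91.7). Its log2 fold change came to 1.72 (standard error 2.04, edgeR adjusted p = 0.9998), and to -3.33 without knockout 1.

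The 2 libraries with most Ighm differed in the form of its 3′ exons. Fragments could be counted only in exons of 1 form, since the exons shared by both forms held none. In control 1, 93 fragments lay in the secreted end and 131 in the 2 membrane exons. In knockout 1 the values were 593 and 92, and in knockout 2 they were 7 and 4. All 14 fragments of control 2 lay in the last membrane exon. The secreted end thus held 41.5% of the fragments in control 1 (exact 95% interval 35.0 to 48.3) and 86.6% in knockout 1 (83.8 to 89.0), intervals that do not overlap. Per countable base the secreted end was 1.48 times as densely covered as the membrane exons in control 1 and 13.5 times in knockout 1. With 1 such library per genotype, this difference has no replicate check.

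**Figure D3:**
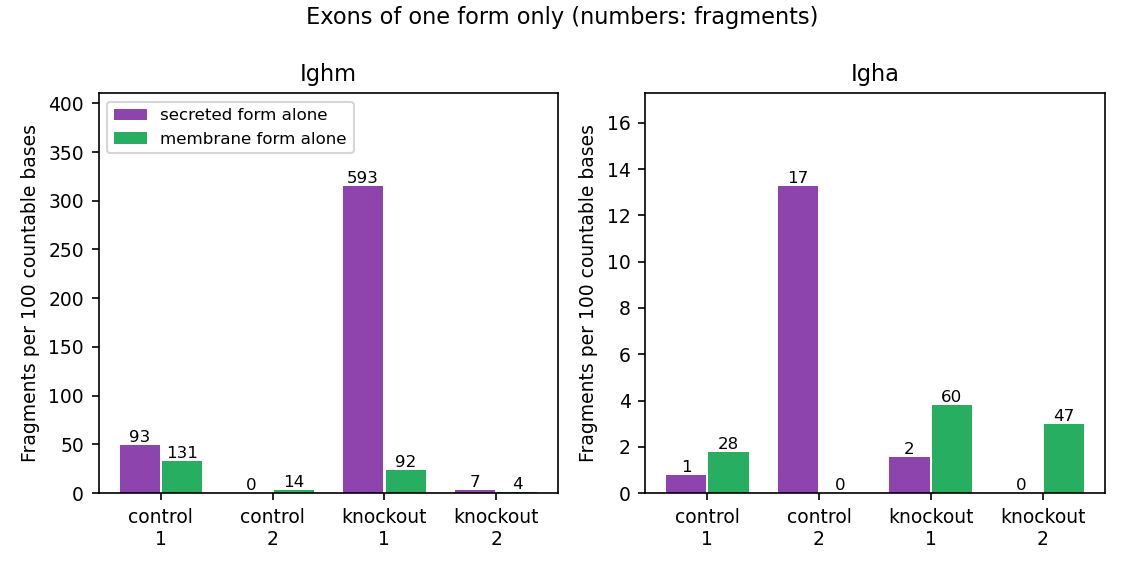
Fragments per 100 countable bases (y axis) in exons that belong to the secreted form alone (purple) or the membrane form alone (green) of Ighm and Igha in each library (x axis), with the number of fragments above each bar. For Ighm the secreted end dominates in knockout 1 (593 against 92 fragments), while Igha fragments lie mostly in the membrane exon in control 1, knockout 1 and knockout 2.

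Igha, the constant region of IgA (ENSMUSG00000095079, chromosome 12, 113254830 to 113260236), was the most evenly spread over the libraries of the 6 members with 100 or more fragments. Knockout 1 had 62 fragments, knockout 2 had 47, control 1 had 29 and control 2 had 17. The controls averaged 5.35 ± 1.29 CPM and the knockouts 13.1 ± 3.05 CPM (± SD, n = 2 per genotype). Both knockouts lay above both controls. The log2 fold change of 1.29 had a standard error of 1.53 and did not pass the test (edgeR, adjusted p = 0.9998). It lay between 1.06 and 1.63 with 1 library left out.

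Igha fragments lay in different exons in different libraries. The long last exon of the membrane form (1568 countable bases) held 28 of 29 fragments in control 1, 60 of 62 in knockout 1 and 47 of 47 in knockout 2. In control 2 all 17 lay at the end of the secreted form. Without strand in the counting, RNA from the opposite strand of that long exon cannot be told apart from Igha.

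The other heavy chain classes were rare. Ighd, the constant region of IgD, had 1, 1, 15 and 0 fragments in control 1, control 2, knockout 1 and knockout 2. All lay in membrane-form exons, which have 1098 countable bases against 94 of the secreted form. Ighg2b, an IgG subclass, had 17 fragments in control 1 and 1 in knockout 1, with 16 of the former in membrane-form exons. These exons have 1564 countable bases, against 112 of the secreted form. Per 100 countable bases control 1 had 1.02 fragments in the membrane form and 0.893 in the secreted form of Ighg2b, so neither form stood out. Ighe, the constant region of IgE, had 1 fragment, in knockout 1. Ighg1, Ighg2c and Ighg3 had 0 fragments in every library, where a count of 0 allows up to 0.647 to 0.783 CPM. That limit holds for countable bases only, and the exons shared by the forms of Ighg2b had none. Ighg2b was thus a member with a higher count in control 1 than in knockout 1, as was Ighv1-58.

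Jchain (ENSMUSG00000067149, chromosome 5, 88519809 to 88527891) had 25 fragments, all in knockout 1, of which 15 lay in its first exon. Its level there was 6.17 CPM, and in the other libraries it had 0.

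The chain composition of the libraries followed from these genes. Its shares are of counted fragments, and so depend on which exons could be counted. Exons shared by the forms of Ighm had no countable bases, which left 581, while all 532 bases of Igkc were countable. The shares of chains and segments are thus not ratios of transcripts. In knockout 1 kappa genes made up 79.0% of immunoglobulin fragments (exact 95% interval 78.2 to 79.8) and heavy chain genes 20.0% (19.2 to 20.8). Heavy chain genes led in control 1 (77.5%, 73.0 to 81.6), control 2 (61.1%, 46.9 to 74.1) and knockout 2 (76.3%, 65.2 to 85.3). V segments made up 44.4% of immunoglobulin fragments in knockout 1 (43.5 to 45.4) and 11.6% (8.59 to 15.3), 9.26% (3.08 to 20.3) and 6.58% (2.17 to 14.7) in control 1, control 2 and knockout 2. The V share in knockout 1 thus lay above the intervals of the other 3 libraries. Despite its depth of immunoglobulin fragments, knockout 1 had 13 V genes with a fragment, the same number as control 1, which had 44 V fragments to its 4522. Control 2 and knockout 2 had 5 V genes each. At a minimum of 3 fragments the counts differed, with 8 V genes in knockout 1, 4 in control 1 and 0 in the other 2 libraries.

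**Figure D4:**
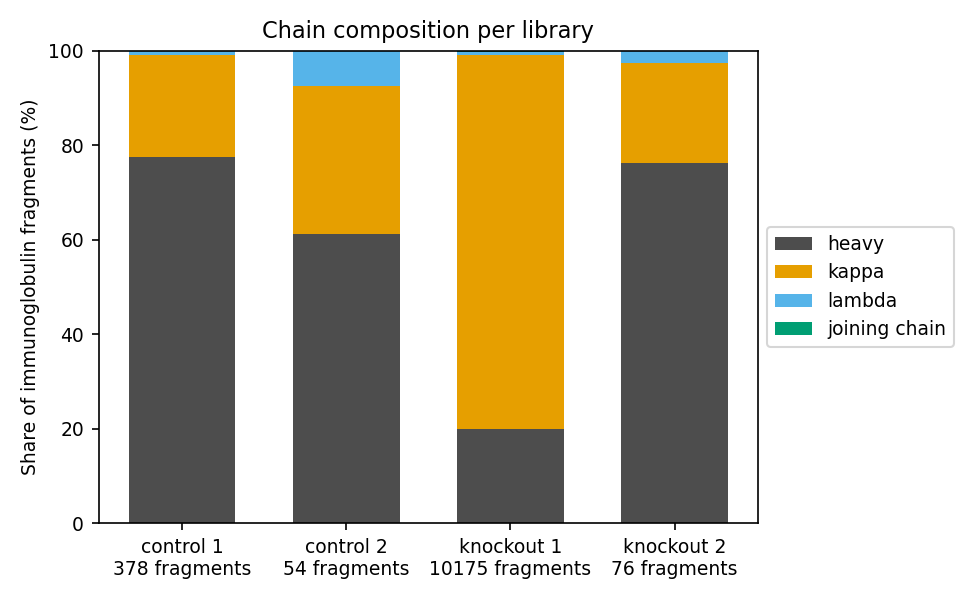
Share of immunoglobulin fragments (y axis, percent) from heavy, kappa, lambda and joining chain genes in each library (x axis, with its number of immunoglobulin fragments). Kappa genes make up 79.0% in knockout 1, and heavy chain genes between 61.1% and 77.5% in the other 3 libraries. Exons shared by the forms of Ighm could not be counted, so these are not shares of transcripts.

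Igkc, Igkv8-34, Igkv14-111, Ighv5-17 and Ighm together held 97.0% of the immunoglobulin fragments of knockout 1 (exact 95% interval 96.6 to 97.3). The other 37 members held 306 fragments in knockout 1, 93 in control 1, 26 in control 2 and 53 in knockout 2, or 75.5, 20.1, 6.78 and 12.4 CPM. Knockout 1 was thus highest also without those 5 genes, by a smaller margin.

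Calls among immunoglobulin genes appeared in 2 settings, and both rested on knockout 1. Without the low-count filter, edgeR called 4 of 42 members, all higher in knockouts, beside 27 of 24651 genes called in either direction (0.11%) and 8 called higher (0.0325%). They were Igkc (log2 fold change 6.19, adjusted p = 6.8e-06), Igkv8-34 (adjusted p = 1.5e-08), Igkv14-111 and Ighv5-17 (adjusted p = 6.8e-06 each). The same 4 genes were the only calls when knockout 2 was left out (4 of 14824 genes, 0.027%), where knockout 1 is the lone knockout and is assumed to vary like the controls. The 3 V genes among them had 0 fragments in knockout 2.

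The summed B cell markers were not highest in knockout 1, where the immunoglobulin sum was. Of the 10 with a fragment, 5 had their highest level there, as had 31.6% of all genes with a fragment. These were Cd79a and Fcrla and, by narrow margins, Pax5 (1 fragment), Ms4a1 (2 fragments, as in control 1) and Cd37. Cd37 was at 92.3 CPM in knockout 1 and 88.6 in knockout 2. Cd79a, a signalling chain of the B cell receptor, had 31 fragments in knockout 1, 21 in control 1, 9 in knockout 2 and 2 in control 2. Ms4a1 (CD20) had 2 in control 1, 1 in control 2, 2 in knockout 1 and none in knockout 2, and Pax5, the B cell identity factor, had 1, in knockout 1. Cd79b, the other signalling chain of that receptor, was at 0 in every library, with 236 countable bases. Blk, a Src family kinase of B cells that some T cells also express, had 113 fragments in control 1, 16 in knockout 1 and none in the other 2. The 14 B cell markers summed to 145.7 and 53.2 CPM in controls and 106.8 and 136.2 in knockouts, led by the leukocyte tetraspanin Cd37 and by Ebf1. Ebf1, a B cell factor that stromal cells also express, was at 44.2 CPM in knockout 2, 31.3 in control 1, 0.49 in knockout 1 and 0 in control 2. Without Ebf1 the sum of control 1 would still lie above that of knockout 1, while the sum of knockout 2 would not. Blk was at 24.4 CPM in control 1 and 3.95 in knockout 1. Without both Ebf1 and Blk the sum of knockout 1 would be the highest, so the order of the sums rested on these genes. Fcrla, a B cell protein, had 7 fragments in knockout 1, 2 in control 1 and none in the other 2. Of 4 tested, 3 had a positive log2 fold change, as had 56.9% of all genes tested, and 0 were called (edgeR).

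The summed genes of plasma cells and of protein secretion varied less between libraries than the immunoglobulin sum, and were also highest in knockout 1. Of the 15 with a fragment, 5 were highest in knockout 1 and 5 in control 1, against 31.6% and 25.8% of all genes with a fragment. Those of knockout 1 were Edem1, Sdc1, Sec11c, Slamf7 and Tent5c, and those of control 1 were Fkbp11, Pou2af1, Prdm1, Tnfrsf17 and Txndc5. Xbp1, a secretory stress factor, was at 551.1 and 516.0 CPM in controls 1 and 2, against 571.8 and 606.3 in knockouts 1 and 2, and Sdc1 (CD138) at 71.6 and 104.9 against 143.6 and 129.9. Other cell types of skin also express both. Tent5c was at 514.6 CPM in knockout 1, 435.4 in control 1, 239.5 in knockout 2 and 108.5 in control 2. Slamf7, a surface receptor of plasma cells and other leukocytes, was likewise highest in knockout 1, at 155.9 CPM against 0 to 67.5. Prdm1 was highest in control 1 (60.2 CPM, against 16.2 to 34.6). Tnfrsf17, the plasma cell receptor BCMA, had 27 fragments in control 1, 11 in knockout 1 and none in the other 2. Mzb1, a chaperone of IgM assembly, was at 0 in every library, with 520 countable bases. The 16 genes summed to 1521 and 1282 CPM in controls and 1908 and 1392 in knockouts. Of 13 tested 8 were positive, beside 56.9% of all genes tested, with a median of 0.04 and none called (edgeR). The part of B lineage cells in the immunoglobulin result was not tested.

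**Figure D5:**
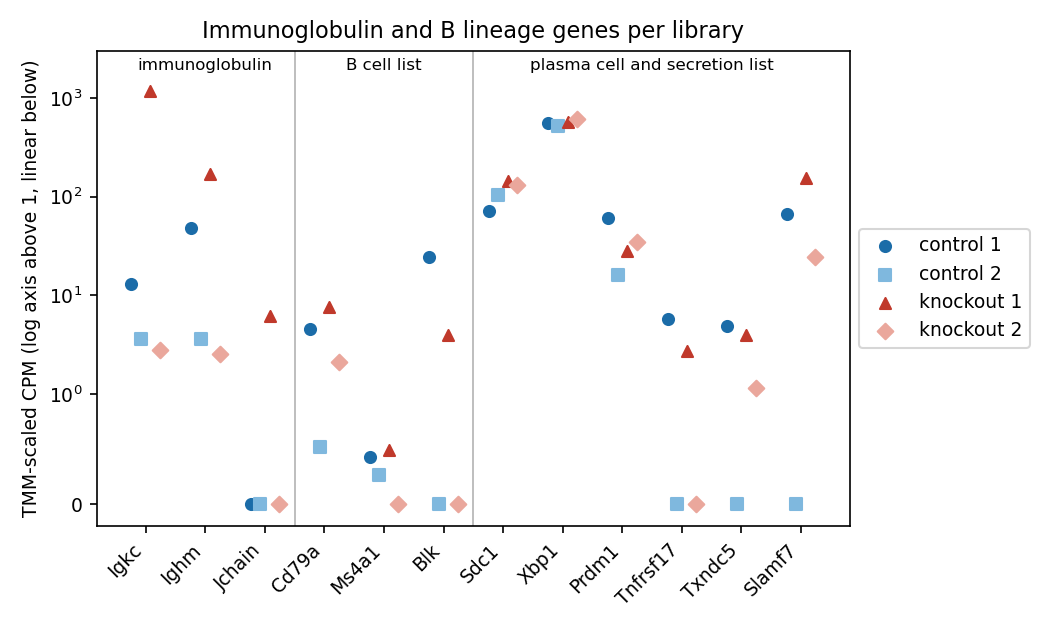
TMM-scaled CPM (y axis, logarithmic above 1 and linear below) of immunoglobulin, B cell and plasma cell genes (x axis), 1 point per library. Igkc in knockout 1 reaches 1169 CPM against 2.80 to 12.9 in the others, while Xbp1 lies between 516.0 and 606.3 in all 4.

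Markers of other cell types also varied between libraries. Mast cell markers, led by Cpa3 and Mcpt4, summed to 170.0 and 96.3 CPM in controls and 137.7 and 370.1 in knockouts. Fibroblast markers, led by Mmp2 and Lum, were at 11890 and 2553 in controls and 5533 and 5634 in knockouts. Keratinocyte markers, led by Perp and Krt14, were at 1623 and 23300, and 2359 and 1083. Macrophage and monocyte markers, led by Lyz2 and Cd14, were at 12900 and 4906, and 22530 and 18230, and were highest in knockout 1, as was the immunoglobulin sum. T cell markers, led by Trac and Trbc2, were at 842.6 and 256.7, and 263.0 and 115.9. The part of these cells in the immunoglobulin levels was not tested.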

How the data were processed

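RNA-seq was done on 4 libraries, 2 per genotype, numbered within a genotype only to name them. The deposited values are raw fragment counts per annotated exon entry. Per the file headers, featureCounts 2.0.1 counted unstranded pairs whose ends both mapped and were not chimeric, against GENCODE M23 on GRCm38. The options that count a fragment for several entries, or a fragment that maps to several places, do not appear there. Trim Galore 0.6.7 and STAR 2.7.9a are named per the submitters' processing notes. Entries sharing coordinates with another (64.8% of 841606) held 0 fragments. How fragments that span rearranged segments aligned was not examined, and near-identical V genes may be undercounted.

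Entries were summed per gene and matched to symbols for 55154 of 55335 identifiers. Knockouts were compared with controls with the quasi-likelihood test of edgeR 4.0.16 under R 4.3.3, after its low-count filter (filterByExpr, 10 counts) and TMM scaling, without covariates, with Benjamini-Hochberg adjustment over 12434 genes at 0.05, two-sided. The code was tested on simulated data. DESeq2 1.42.0, limma 3.58.1 (voom), other scalings, no filter and leaving out each library were alternatives. Intervals of shares are exact binomial at 95%, and a count of 0 is read as at most 3 fragments. Exon forms, biotypes and sequences come from GENCODE M21. Named were all constant-region genes and Jchain with a fragment, the 6 Ighv, 6 Igkv and 3 Iglv genes with most fragments, any member called under an alternative, the 2 members of each marker list with the highest mean CPM where reported, and the defining B cell and plasma cell genes. Other genes named were chosen after their values were seen. Some marker genes are not reported here. Members and lists were chosen with earlier results of these data known.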

Additional observations from a re-analysis of the deposited data

How the results depend on the processing

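No immunoglobulin gene was called in the main comparison. Called genes numbered 4 members and 27 genes without a low-count filter, and 0 members and 17 genes with DESeq2. With 1 library left out, 0 to 4 members and 0 to 4 genes were called. The log2 fold change lay between -1.54 and 7.39 for Igkc, between -3.33 and 4.61 for Ighm and between -0.89 and 6.28 for the summed level in those settings, with each negative value obtained without knockout 1. Limma-voom gave 2.92 for Igkc and 0.42 for Ighm. The other scalings kept the direction of all 3 tested genes and of the sum. At a minimum of 3 fragments, control 1 had 4 V genes and knockout 1 had 8, with 0 in control 2 and 0 in knockout 2, against 13, 13, 5 and 5 at 1 fragment. Leaving out pseudogenes could not change these 4 counts, since no V pseudogene had a fragment. No paired analysis was possible because the labels number no replicates. Composition in control 2 and knockout 2 rests on 54 and 76 fragments.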

Other observations

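Genes for receptors of immunoglobulins and for the assembly and editing of immunoglobulin genes were read in the same libraries. Fcgr1, the high-affinity IgG receptor, was at 246.0 and 46.2 CPM in controls and 705.0 and 532.0 in knockouts, and Fcgr2b, the inhibitory one, at 340.1 and 150.8, and 590.8 and 231.8. Of the 11 genes in this list 7 were tested, 6 with a positive log2 fold change (median 0.74) and none called (edgeR). Over all genes tested 56.9% were positive, with a median of 0.20. Pigr, the epithelial transporter of polymeric IgA and IgM, was at 0 in every library. Ung, a uracil glycosylase of DNA repair, had 22 fragments in control 1 and 21 in knockout 1 and 0 in the other 2 libraries. Rag1 and Rag2, which recombine V, D and J segments, were at 0 in every library. No gene of the assembly and editing list was called (edgeR).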
